A study of Homo sapiens with 8 samples.

Results

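Potassium channel genes were taken as the rows of the deposited table whose gene symbol starts with KCN, goes on with letters and ends in a number, which left out antisense and overlapping RNA genes. This rule found 60 of 25603 genes, and 32 of them were expressed above the limit set for testing. Potassium channels let potassium leave or enter the cell along its electrochemical gradient and thereby set the resting membrane potential. Voltage-gated channels open when the membrane depolarises, calcium- and sodium-activated channels open with the ion inside the cell, inward rectifiers pass current more easily inwards, and K2P channels carry the background leak. In hepatocytes and in other epithelia potassium channels recycle the potassium that the sodium pump brings in, hold the driving force for secretion and take part in the recovery of cell volume, whereas many members of the voltage-gated classes are best known from neurons and heart muscle.

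The samples were 8 libraries of mRNA from HepG2, a line grown from a human liver tumour, with 4 libraries in each group. EZHi libraries came from cells kept for 4 days with a pair of inhibitors of the histone methyltransferases EZH1 and EZH2, UNC1999 and valemetostat tosylate, each at 1 µM (labelled DI by the submitters). Vehicle libraries came from cells given DMSO, at 0.2% by the labels, for the same time. EZH1 and EZH2 are the alternative catalytic subunits of polycomb repressive complex 2, which places the repressive trimethyl mark on lysine 27 of histone H3. Both groups were grown in William's E medium with serum, insulin and dexamethasone, and the labels give no genetic modification for either. Since the inhibitors were given together, the effect of one cannot be told apart from that of the other, and all values describe a single tumour line. The study calls its replicates biologically independent.

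The library correlations over all tested genes were 0.992 to 0.997 within a group and 0.986 to 0.993 between groups. The 9 hepatocyte markers examined were all detected, and their summed level was 24077 to 46998 estimated FPKM in vehicle and 26537 to 43126 in EZHi, with FGB called higher (0.92, limma adjusted p = 0.00167). Of 9 neuron markers 5 were in the table, none of the 2 that could be tested was called, and their sum was 1.21 to 1.62 estimated FPKM in vehicle and 1.45 to 2.26 in EZHi. Of 8 muscle markers 7 were in the table and 3 were tested, with MYH7 called, and their sum was 2.90 to 3.39 in vehicle and 3.65 to 4.07 in EZHi. Blood and endothelial markers summed to 3.23 to 4.02 in vehicle and 4.03 to 8.23 in EZHi, with CDH5 and VWF called among 4 tested. Cholangiocyte markers (720 to 1126 against 907 to 1231) and fibroblast markers (12.2 to 15.0 against 14.7 to 17.2) held no called gene among 5 and 2 tested. When libraries of the same replicate number were compared, 3 hepatocyte markers, 2 cholangiocyte markers and 1 neuron marker were called higher and 1 hepatocyte marker was called lower, while the calls in the muscle, fibroblast and blood or endothelial lists were as before. The part of these small marker levels in the potassium channel results was not tested. In RNA from whole cultures, more cells carrying a transcript and more transcript in each cell cannot be told apart.

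Values are given on a log2 scale and as a level. The deposited value is a log2 of normalised reads after a correction for transcript length, so that levels can be compared between genes, and a difference on it of 1 is a doubling. The estimated FPKM was obtained by turning that value back from the log scale and scaling it to a common library total, and it serves only to describe levels. Because the log transformation used by the authors draws low genes towards their mean, the differences of weakly expressed genes are understated, and most potassium channel genes are of that kind. The spread between libraries, on which the p-values rest, is drawn in as well. Whether the calls of weakly expressed genes are too few or too many for this reason was not tested. In vehicle, 9 of the 60 genes were at or above 1 estimated FPKM and only KCNAB2 was above 10. The most abundant included, from the top, KCNAB2 (30.4 estimated FPKM), KCNJ10 (5.78), KCNE3 (4.46), KCNK13 (3.03), KCNJ11 (1.91), KCNIP2 (1.86), KCNMB3 (1.79) and KCNG3 (1.36). Among these genes the vehicle values of neighbours overlapped in every case after KCNAB2, whose lowest library (9.21 on the log2 scale) lay above the highest of KCNJ10 (7.80).

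**Figure D1:**
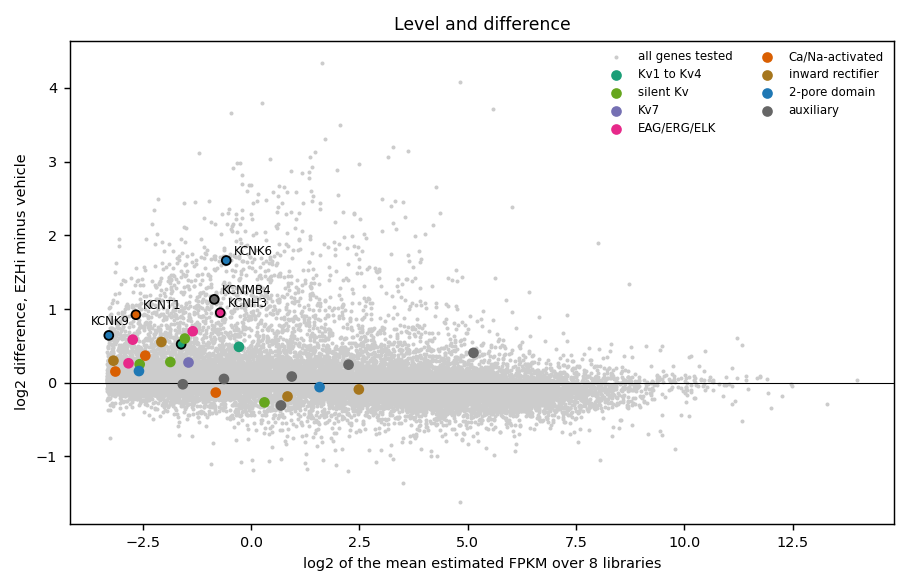
Difference between EZHi and vehicle (log2, vertical axis) against the log2 of the mean estimated FPKM over all 8 libraries (horizontal axis), with 30 tested potassium channel genes coloured by class over all 20153 tested genes in grey. Black rims mark 6 called genes, 5 of them named, which all lie to the left of 0 on the horizontal axis.

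In EZHi libraries 8 of the 32 tested potassium channel genes were higher and none was lower (limma, adjusted p under 0.05 over 20153 genes). That is 25% of the tested members, beside 8.85% of all tested genes that were called higher and 4.27% that were called lower. No member had an unadjusted p under 0.05 in the lower direction, and 16 had one in the higher direction. Among the called genes were KCNK6, KCNMB4, KCNH3, KCNT1, KCNK9 and KCND1. Only KCNK6 and KCNMB4 were called with a change of at least 2-fold, where the share over all genes was 3.21%. The difference was above 0 in 25 of the 32 genes, beside 9672 of all 20153 tested genes. Its median was 0.29 on the log2 scale against -0.0077 for all tested genes, and it ran from -0.31 in KCNMB3 to 1.66 in KCNK6. In 9 genes every EZHi library lay above every vehicle library, against 10.7% of all tested genes, and in no member did every EZHi library lie below, against 7.93%.

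The members were mostly weakly expressed, and weakly expressed genes were called higher more often throughout the table. Among members with a mean under 1 estimated FPKM, 7 of 23 tested were called higher with a median difference of 0.49, where all genes under that level gave 13.8% and a median of 0.064. Among members at or above 1 estimated FPKM, 1 of 9 was called higher with a median of -0.060, where all such genes gave 6.15% and a median of -0.057. The difference was above 0 in 21 of the 23 weaker members, beside 4683 of 7146 tested genes under that level. At or above it, 4 of 9 members and 4989 of 13007 genes had a difference above 0. KCNK9 and KCNJ14 were tested although their vehicle mean was under the limit of 0.1 estimated FPKM, since the EZHi libraries lifted their overall mean. Without these genes 7 of 30 members were called.

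**Figure D2:**
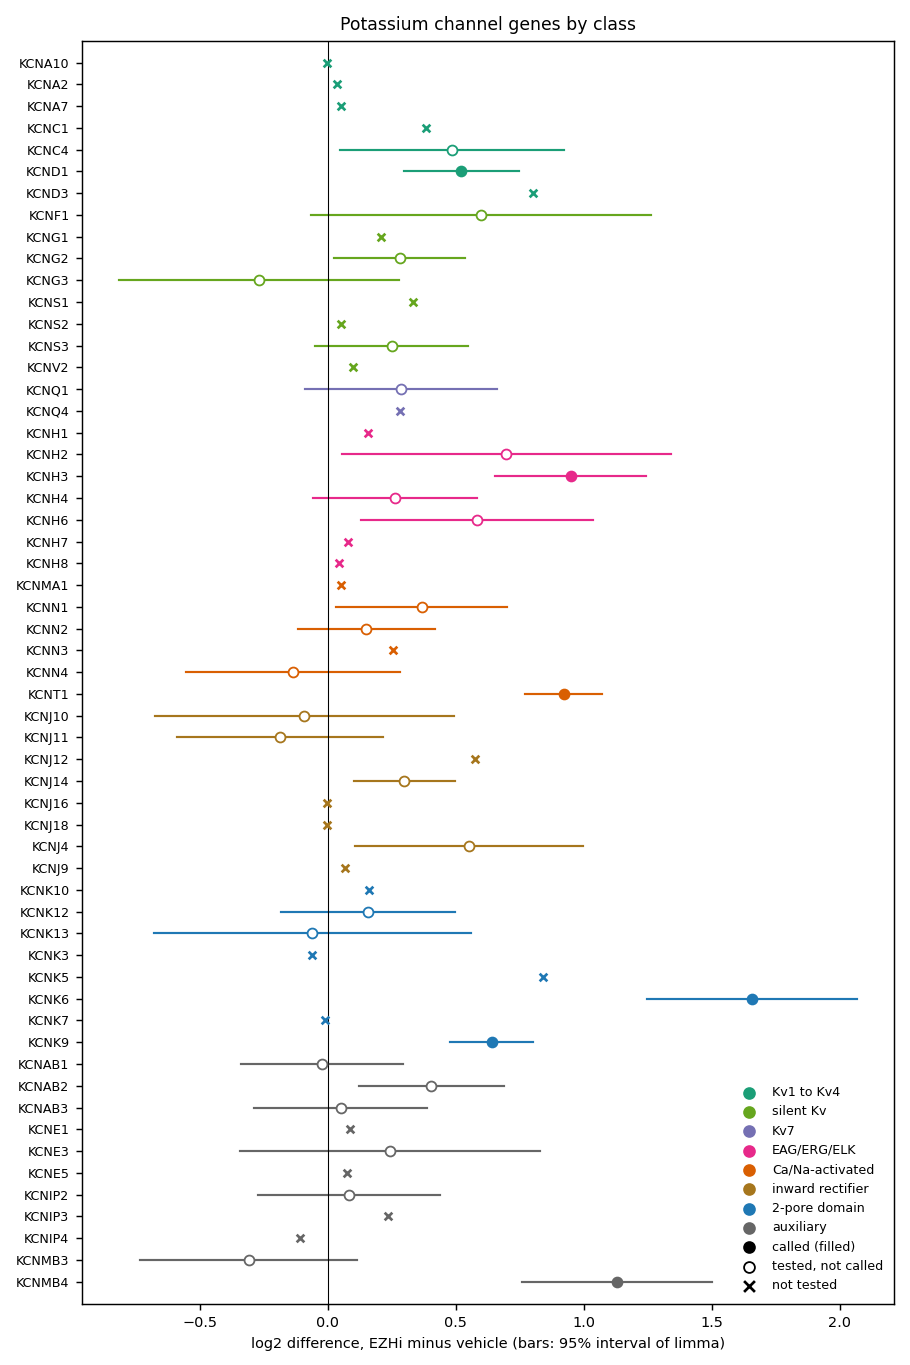
Difference between EZHi and vehicle (log2, horizontal axis) for 57 potassium channel genes, coloured by class, with 95% intervals from limma for 30 tested genes and crosses for 27 that were not tested. The intervals of the 6 called genes drawn (filled) lie above 0, and no tested gene drawn has an interval wholly below 0.

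When the libraries were compared within the replicate numbers of the labels, 17 of the 32 genes were called higher and none lower, against 14.9% of all genes called higher in the same fit. Under 1 estimated FPKM these were 15 of 23 members, beside 1361 of 7146 genes. At or above that level they were 2 of 9 members, beside 1642 of 13007 genes. The numbers pair the libraries in these data, and all 8 genes called without the pairing were called with it. The additional 9 are given by class below with the adjusted p of the fit without pairing and then with it.

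Promoters are shown for the called genes found in the RefSeq table of GRCh38.p14, so that the bases in front of the genes that rose can be read. Entries were found for KCNT1, KCNK6 and KCND1, and not for KCNH3, KCNK9 or KCNMB4. Each line holds the 250 bases before the annotated start, 5′ to 3′ on the strand of the gene, with the dinucleotide CG in capitals. CG reads the same on both strands. The windows are chr9:135701935-135702184 (plus strand) for KCNT1, chr19:38319595-38319844 (plus strand) for KCNK6 and chrX:48971845-48972094 (minus strand) for KCND1.
KCNT1: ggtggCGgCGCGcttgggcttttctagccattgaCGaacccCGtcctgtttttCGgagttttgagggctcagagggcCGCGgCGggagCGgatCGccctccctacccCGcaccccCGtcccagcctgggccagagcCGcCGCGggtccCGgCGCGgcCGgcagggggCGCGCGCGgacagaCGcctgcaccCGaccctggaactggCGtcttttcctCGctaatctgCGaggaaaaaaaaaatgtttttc
KCNK6: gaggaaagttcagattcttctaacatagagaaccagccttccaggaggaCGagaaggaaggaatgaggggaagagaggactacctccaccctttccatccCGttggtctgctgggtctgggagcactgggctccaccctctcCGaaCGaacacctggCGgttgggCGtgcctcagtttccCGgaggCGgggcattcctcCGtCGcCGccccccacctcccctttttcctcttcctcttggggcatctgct
KCND1: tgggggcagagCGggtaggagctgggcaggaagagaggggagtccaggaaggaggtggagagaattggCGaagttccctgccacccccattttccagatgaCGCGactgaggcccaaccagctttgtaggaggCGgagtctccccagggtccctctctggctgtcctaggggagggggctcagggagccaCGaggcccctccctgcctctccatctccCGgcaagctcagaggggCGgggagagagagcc
The KCNT1 window held 29 CG, the KCNK6 window 11 and the KCND1 window 8. At least 1 CG was present in 93.6% of the 27305 promoter windows of the same length in that table, whose median was 11. The median was 20 both over the 12005 tested genes with an entry and over the 23 tested members with one. Over the 2433 tested genes under 1 estimated FPKM with an entry, the level of most members, it was 15. A comparison of promoter composition between called and other members was void, because only 43 of the 60 members and 3 of the 8 called ones had an entry.

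**Figure D3:**
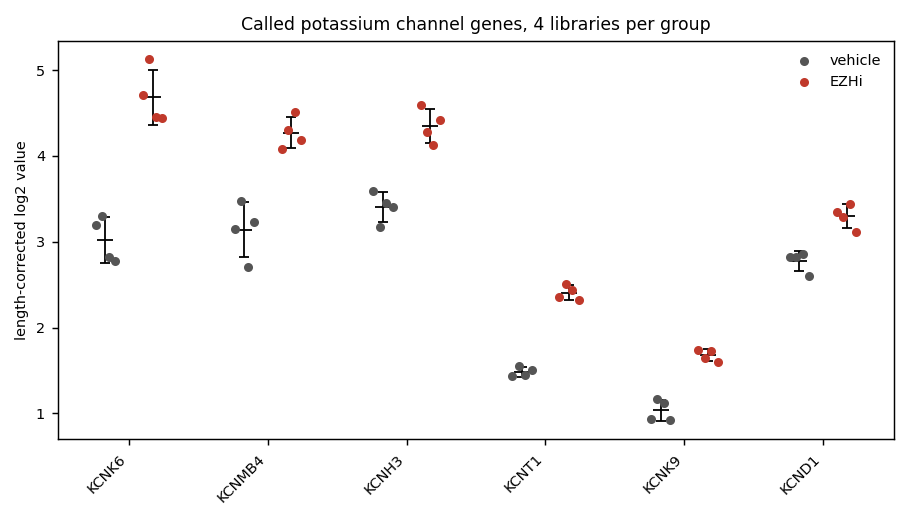
Length-corrected log2 value of each library for 6 of the potassium channel genes called higher, vehicle and EZHi side by side, with the mean and SD of 4 libraries. In each of the 6 genes the lowest EZHi library lies above the highest vehicle library.

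K2P channels held the largest change. K2P channels are open at rest and hold the membrane near the potassium equilibrium. Of 8 present 4 were tested and 2 were called higher, KCNK6 and KCNK9. KCNK9 was tested only because its EZHi libraries lifted its overall mean. Over all tested genes 8.85% were called higher, and 13.8% of those under 1 estimated FPKM. KCNK6, which encodes TWIK-2, a leak channel found on the plasma membrane and in endolysosomes, lies at chr19:38319845-38332076 on the plus strand (ENSG00000099337). Its length-corrected log2 values were 3.20, 3.30, 2.82 and 2.77 in vehicle replicates 1 to 4 and 4.70, 5.13, 4.45 and 4.44 in EZHi replicates 1 to 4. The groups were more than 1 log2 unit apart at their nearest libraries, and libraries 1 and 2 were the upper ones in both groups. The means were 3.02 ± 0.27 and 4.68 ± 0.32 (SD, n = 4 each), a difference of 1.66 ± 0.18 (standard error), with a 95% interval from 1.25 to 2.07, or 3.16-fold (limma adjusted p = 0.000292). On the level scale KCNK6 went from 0.322 to 1.02 estimated FPKM.

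KCNK9 encodes TASK-3, an acid-sensitive leak channel best known from brain and expressed from the maternal allele there. Its values were 0.93, 1.16, 1.12 and 0.93 in vehicle and 1.74, 1.64, 1.73 and 1.59 in EZHi (log2). Every EZHi library was above every vehicle library, at levels close to the limit for testing (0.0802 and 0.125 estimated FPKM). KCNK9 rose by 0.64 ± 0.072 (standard error, limma adjusted p = 0.00032). Its vehicle mean was under the limit, so this test was made only because of the level of its EZHi libraries. KCNK13, which encodes the leak channel THIK-1 and was the most abundant K2P gene, had 6.21, 6.67, 5.67 and 6.37 in vehicle and 6.41, 6.66, 5.44 and 6.18 in EZHi. Its groups overlapped fully, and its difference was -0.060 with a 95% interval from -0.68 to 0.56 (limma adjusted p = 0.925). The related silent subunit gene KCNK12 had a difference of 0.16 (adjusted p = 0.570). KCNK5, which encodes TASK-2, an alkaline-activated channel of kidney and other epithelia, was below the limit for testing. KCNK5 values were 0.42, 0.48, 0.25 and 0.24 in vehicle and 1.21, 1.13, 1.33 and 1.09 in EZHi, with no overlap, and without the limit its difference of 0.84 had an adjusted p of 0.000225.

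Channels opened by intracellular calcium or sodium followed a mixed course, with 6 genes in the table, 4 tested and 1 called without pairing. In that fit 8.85% of all tested genes were called higher. KCNT1 encodes Slack, a sodium-activated channel of neurons, and lies at chr9:135702185-135795508 on the plus strand (ENSG00000107147). KCNT1 values were 1.43, 1.56, 1.44 and 1.504 in vehicle and 2.36, 2.51, 2.44 and 2.32 in EZHi (log2). The libraries within each group were closer together than in any other called member with a difference above 0.9, and the groups were far apart. The means were 1.48 ± 0.058 and 2.41 ± 0.085 (SD, n = 4 each), a difference of 0.92 ± 0.067 (standard error) with an interval from 0.77 to 1.07, which gave the lowest adjusted p of all members (limma, 2.21e-05). Its level stayed low, at 0.109 and 0.207 estimated FPKM, below that of every other called member with a difference above 0.9. The part of the log transformation, which draws low values together, in this small spread was not tested.

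KCNN4, the intermediate-conductance calcium-activated channel of epithelia, red cells and lymphocytes, was the most abundant gene of this class. KCNN4 values were 3.87, 4.39, 3.39 and 3.96 in vehicle and 3.83, 3.88, 3.77 and 3.60 in EZHi. The EZHi libraries all fell within the vehicle range, and the difference was -0.13 with an interval from -0.55 to 0.28 (adjusted p = 0.714). The small-conductance channel genes KCNN1 and KCNN2 had differences of 0.37 (adjusted p = 0.147, and 0.0137 within replicate numbers) and 0.15 (0.476, and 0.211). KCNMA1, the pore of the large-conductance BK channel, was below the limit, with mean log2 values of -2.68 in vehicle and -2.63 in EZHi and about 0.006 estimated FPKM in both.

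KCNMB4 encodes the beta-4 auxiliary subunit of the BK channel, which slows its gating in neurons, and lies at chr12:70366290-70434292 on the plus strand (ENSG00000135643). KCNMB4 values were 3.15, 3.48, 2.70 and 3.23 in vehicle and 4.08, 4.31, 4.51 and 4.19 in EZHi (log2). The highest vehicle library was below the lowest EZHi library, and vehicle replicate 3 was the lowest while EZHi replicate 3 was the highest. The means were 3.14 ± 0.32 and 4.27 ± 0.19 (SD, n = 4 each), a difference of 1.13 ± 0.17 (standard error), or 2.19-fold (limma adjusted p = 0.00162). Its level of 0.351 estimated FPKM in vehicle and 0.759 in EZHi was over that of the BK pore gene KCNMA1 in both groups. KCNMB3, the beta-3 subunit gene, had the lowest difference of all tested members, -0.31 with an interval from -0.73 to 0.12 (adjusted p = 0.347). Reads of KCNMB3 are uncertain, since 47.6% of its exon bases also belong to PIK3CA or other genes and reads were counted without regard to strand.

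The remaining auxiliary genes gave no call in the fit without pairing, so that KCNMB4 was the called one of 7 tested and 11 in the table. The share called higher over all tested genes was 8.85%. KCNAB2 encodes the beta-2 subunit of Kv1 channels, a cytoplasmic protein with an oxidoreductase fold, and was by far the most abundant potassium channel gene. Its values were 9.60, 9.83, 9.21 and 9.70 in vehicle and 9.98, 10.11, 9.82 and 10.04 in EZHi (log2). EZHi replicate 3 was just below vehicle replicate 2, so the groups touched, but each EZHi library was above the vehicle library of its number. The difference was 0.40 with an interval from 0.12 to 0.69, which was not called without pairing (limma adjusted p = 0.0659) and was called with it (0.00124). KCNAB2 was also called without pairing after quantile normalisation (0.49, adjusted p = 0.0301) and after centring the libraries on genes of at least 10 estimated FPKM (0.48, adjusted p = 0.0298). KCNE3, a single-span subunit that holds KCNQ1 open in epithelia, had 6.79, 7.49, 6.10 and 6.61 in vehicle and 6.95, 7.39, 6.76 and 6.87 in EZHi, with overlapping groups. The KCNE3 difference was 0.24 with an interval from -0.34 to 0.83 (adjusted p = 0.615), and it was 0.028 without vehicle replicate 3 and 0.49 without vehicle replicate 2. KCNAB1 (-0.021), KCNAB3 (0.051) and the calcium-binding Kv4 partner KCNIP2 (0.083) had adjusted p of 0.950, 0.879 and 0.800. KCNE3 shares 16.9% of its exon bases with other genes and KCNIP2 13.1%, so reads of both are uncertain for the reason given for KCNMB3.

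Among the EAG, ERG and ELK channels (KCNH), 4 of 7 genes were tested and all had a positive difference, with a median of 0.64 on the log2 scale. All 4 were under 1 estimated FPKM, where 4683 of 7146 tested genes had a positive difference, with a median of 0.064. Of the 4 genes 1 was called higher without pairing, beside 13.8% of all tested genes under that level. KCNH3 encodes Kv12.2, an ELK channel of forebrain neurons, and lies at chr12:49539030-49558337 on the plus strand (ENSG00000135519). KCNH3 values were 3.60, 3.17, 3.45 and 3.41 in vehicle and 4.59, 4.28, 4.13 and 4.42 in EZHi. The groups were clear of each other by more than the vehicle range. The means were 3.40 ± 0.18 and 4.35 ± 0.20 (SD, n = 4 each), a difference of 0.95 ± 0.13 (standard error), or 1.93-fold (limma adjusted p = 0.00116). A share of 0.96% of its exon bases lies in MCRS1 on the other strand, while the other 7 called genes share none.

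KCNH2, the ERG channel that repolarises the heart and is also expressed in many tumour lines, had 2.55, 3.68, 2.38 and 2.90 in vehicle and 3.56, 4.08, 3.09 and 3.58 in EZHi. Vehicle replicate 2 lay above 3 of the 4 EZHi libraries, and replicate 2 was the highest in both groups. The difference was 0.70 with an interval from 0.055 to 1.34 (limma adjusted p = 0.153, and 0.00211 within replicate numbers). Its relative KCNH6 had 1.49, 1.40, 1.98 and 1.48 in vehicle and 2.00, 1.87, 2.79 and 2.03 in EZHi. Replicate 3 was the highest in both groups of KCNH6, and the difference of 0.58 had an adjusted p of 0.0938, and 0.000911 within replicate numbers. KCNH4, a further ELK gene, had a difference of 0.26 (adjusted p = 0.284, and 0.236 within replicate numbers).

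**Figure D4:**
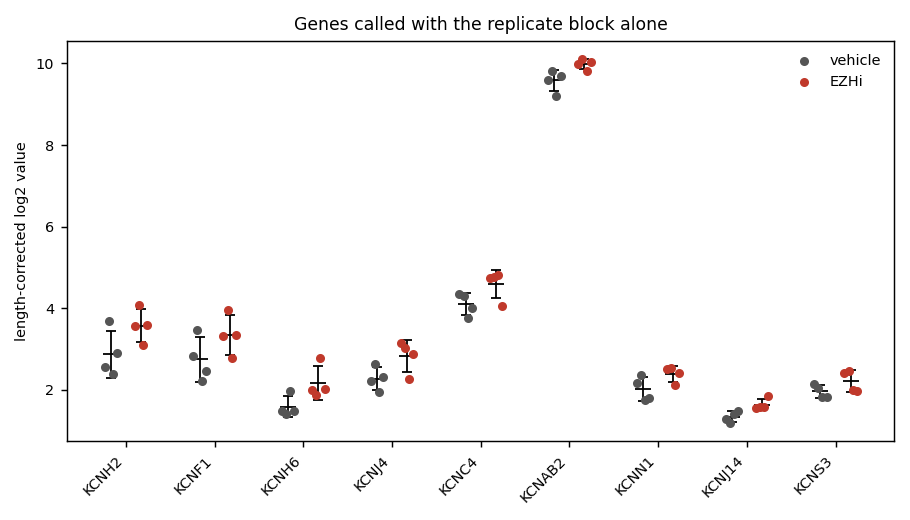
Length-corrected log2 value of each library for the 9 potassium channel genes called only when libraries of the same replicate number were compared, with the mean and SD of 4 libraries. Apart from KCNJ14 the vehicle and EZHi libraries overlap, and the points of each group are drawn from left to right as replicates 1 to 4.

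Among the Kv7 genes, KCNQ1, the Kv7.1 channel of heart and epithelia, had 2.69, 3.17, 2.91 and 3.45 in vehicle and 3.42, 3.58, 3.12 and 3.26 in EZHi. The KCNQ1 groups overlapped, and the difference of 0.29 had an interval from -0.089 to 0.66 (adjusted p = 0.322). Of the KCNQ1 exon bases 3.98% lie in other genes, chiefly the antisense RNA gene KCNQ1OT1.

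The Kv1 to Kv4 genes (KCNA to KCND) were mostly below the limit. KCND1 encodes Kv4.1, a channel of the rapidly inactivating A-type current, and lies at chrX:48961378-48971844 on the minus strand (ENSG00000102057). KCND1 values were 2.82, 2.82, 2.85 and 2.60 in vehicle and 3.35, 3.28, 3.44 and 3.11 in EZHi. Replicate 4 was the lowest in both groups, and the groups were apart. KCND1 rose by 0.52 ± 0.10 (standard error), or 1.44-fold (limma adjusted p = 0.00737). KCNC4, the Kv3.4 gene, had a difference of 0.49 with an adjusted p of 0.143, and 0.0417 within replicate numbers. KCND3, the Kv4.3 gene, was below the limit at 0.0529 and 0.0932 estimated FPKM, and without the limit its difference of 0.80 had an adjusted p of 0.00735.

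The modifier subunits (KCNF, KCNG, KCNS and KCNV) form channels together with Kv2 subunits. They held no call among 4 tested of 8 in the fit without pairing, and 2 calls with it. Of all tested genes, 8.85% were called higher in the former fit and 14.9% in the latter. KCNG3, the most abundant of them, had 4.89, 4.62, 5.67 and 5.09 in vehicle and 4.80, 4.34, 5.24 and 4.83 in EZHi. Each KCNG3 library in EZHi was below the vehicle library of its number, but the groups overlapped and the difference of -0.27 had an adjusted p of 0.546, and 0.0856 within replicate numbers. Without vehicle replicate 3 the KCNG3 difference was -0.065, and without EZHi replicate 2 it was -0.11. KCNF1 had a difference of 0.60, with an interval from -0.065 to 1.26 (limma adjusted p = 0.236, and 0.00276 within replicate numbers). Differences of 0.25 in KCNS3 (adjusted p = 0.271, and 0.0431 within replicate numbers) and 0.28 in KCNG2 (0.147, and 0.111) were of similar size.

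The inward rectifiers (KCNJ) also held no call among 4 tested of 8 in the fit without pairing, and 2 calls with it. The shares of all tested genes called higher in these fits were 8.85% and 14.9%. Of the 2 genes, KCNJ14 was tested only because its EZHi libraries lifted its overall mean. KCNJ10, the Kir4.1 channel of glia and kidney, came next to KCNAB2 in abundance, with 6.93, 7.02, 6.86 and 7.80 in vehicle and 6.48, 6.97, 7.23 and 7.57 in EZHi. Replicate 4 was the highest in both groups, and the difference of -0.091 had an interval from -0.68 to 0.49 (adjusted p = 0.874). KCNJ11, the Kir6.2 pore of the ATP-sensitive channel, had 5.46, 6.02, 5.58 and 5.28 in vehicle and 5.34, 5.77, 5.23 and 5.26 in EZHi. These values overlapped, and the difference of -0.19 had an interval from -0.59 to 0.22 (adjusted p = 0.569). ABCC8 and ABCC9, which encode the sulphonylurea receptors that complete that channel, were both below the limit, at 0.00988 and 0.00557 estimated FPKM in vehicle. KCNJ4 and KCNJ14, from the strongly rectifying Kir2 group, had differences of 0.55 (limma adjusted p = 0.104, and 0.00583 within replicate numbers) and 0.30 (0.0533, and 0.0111). KCNJ14 shares 30.6% of its exon bases with other genes and KCNJ4 12.6%. KCNJ12 and its near-identical copy KCNJ18 were below the limit, with differences of 0.58 and -0.0036, and reads between them cannot be assigned with certainty. KCNJ8 and KCNK1 were not analysed here.

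The 28 members below the limit had a median difference of 0.084, and 22 of them were above 0. Among all 12596 genes under 1 estimated FPKM, tested or not, the median was 0.051 and 8320 were above 0. That set is not matched in level to the 28 members, since it includes 7146 tested genes above the limit. In 9 of the 28 untested members the SD was under 0.1 in both groups, as in KCNA10, whose values were -1.49 in all 8 libraries. When all 25603 genes were fitted without the limit, 13 of the 60 members were called higher and none lower, against 8.28% of all genes called higher. The 5 that were added were KCNK5, KCND3, KCNJ12, KCNN3 (0.25, adjusted p = 0.0331) and KCNK10 (0.16, adjusted p = 0.0376). The vehicle libraries of KCNN3, KCNK10 and KCNJ12 were almost equal (SD 0.0020, 0.0032 and 0.014), so their calls rest on a very small vehicle spread at very low levels. KCNC1, the Kv3.1 gene, was the only untested member with an EZHi mean at or above the limit, at 0.0808 and 0.105 estimated FPKM. Members within 500000 bases of each other formed 6 pairs, such as KCNA10 and KCNA2, which lie 662 bases apart, and none of the 8 genes called with the limit and without pairing was among them.

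Genes that work beside the channels were examined for the same contrast. The sodium pump brings into the cell the potassium that the channels let out, and 4 of its 10 tested subunit genes rose while none fell, from a list of 14. Over all tested genes 8.85% were called higher and 4.27% lower, and 13.8% of those under 1 estimated FPKM were called higher. The pump list and the partner lists below were chosen with earlier results of these data known. The widely expressed beta-1 subunit gene ATP1B1, at 62.2 and 60.5 estimated FPKM, had a difference of -0.035 (limma adjusted p = 0.832). ATP1B2, the beta-2 subunit of glia, had 2.90, 2.65, 2.92 and 2.59 in vehicle and 4.12, 4.33, 4.45 and 4.02 in EZHi, without overlap, a difference of 1.47 (limma adjusted p = 6.02e-05). FXYD5, a single-span regulator of the pump also called dysadherin, had 3.77, 3.56, 3.53 and 3.68 in vehicle and 5.08, 5.37, 5.28 and 4.65 in EZHi, a difference of 1.46 (adjusted p = 0.000236). FXYD3, a further regulator of this family, was higher by 0.37 (adjusted p = 0.0381). Within replicate numbers 5 pump genes were called higher, FXYD2 being added (0.35, adjusted p = 0.033), and ATP1B3 was called lower (-0.28, adjusted p = 0.00165, against 0.265 without pairing). The same fit called 3003 of all 20153 tested genes higher and 3048 lower.

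**Figure D5:**
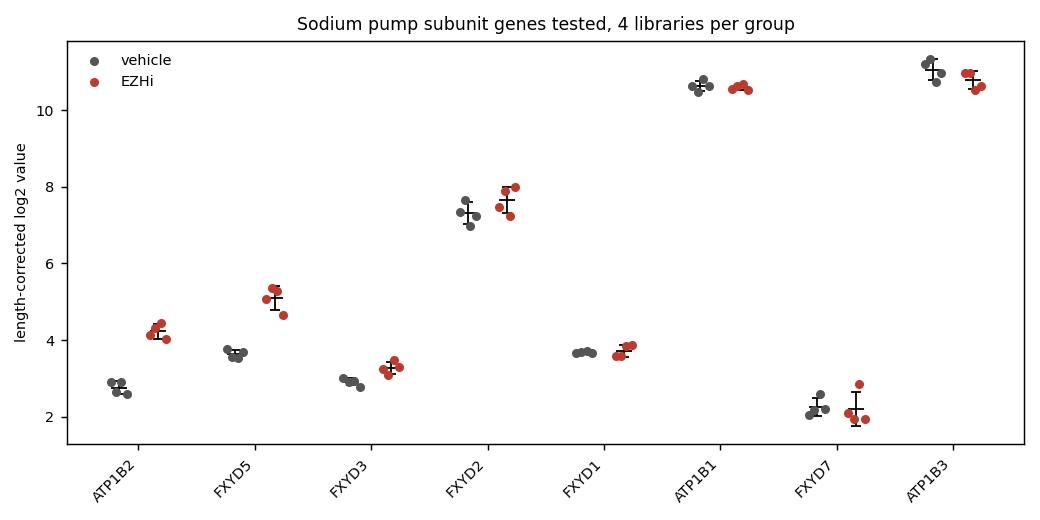
Length-corrected log2 value of each library for 8 tested sodium pump subunit genes, vehicle and EZHi, with the mean and SD of 4 libraries. ATP1B2 and FXYD5 rise by 1.47 and 1.46 with no overlap, while ATP1B1 stays near 11.

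Other partners of potassium channels, among them hyperpolarisation-activated HCN channels and membrane subunits, had 8 of 14 listed genes in the table and 3 tested. HCN2, a pacemaker channel that passes both sodium and potassium, had 3.41, 3.08, 2.97 and 3.45 in vehicle and 3.81, 4.06, 4.04 and 3.58 in EZHi. The groups did not overlap, and HCN2 rose by 0.65 (limma adjusted p = 0.019). AMIGO1, an auxiliary subunit of Kv2 channels, had a difference of 0.37 (adjusted p = 0.0528, and 0.0178 within replicate numbers). Beside 8.85% of all tested genes, 1 of the 6 tested cation-chloride cotransporters rose. This was SLC12A5, the KCC2 transporter that lowers chloride in neurons, with 5.04, 4.95, 5.05 and 4.94 in vehicle and 5.63, 5.42, 5.74 and 5.98 in EZHi (difference 0.70, adjusted p = 0.00539). SLC12A4, the widely expressed KCC1, had a difference of -0.30 (adjusted p = 0.139, and 0.00224 within replicate numbers).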

How the data were processed

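mRNA of HepG2 cells was sequenced as paired reads of 150 bp, in 4 EZHi and 4 vehicle libraries grouped and numbered by the sample titles. Per the methods of the study and the submitters' processing notes, the authors aligned reads to hg38 with HISAT2 2.2.1, counted exon reads at a minimum mapping quality of 10 with HTSeq 0.9.1 without regard to strand, and normalised them with the regularised log of DESeq2 1.40.2, followed by a correction for mean transcript length. Versions are those of the processing notes, and the methods text gives other ones for the aligner and the normalisation package. The deposited values are therefore log2 values (the table is named as FPKM), from -6.81 to 19.01. They hold no counts, so the depth of each library is unknown and no counting interval is given. No per-sample column was left unused.

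Estimated FPKM was 2 to the power of the value divided by the mean over libraries of the sum of values times length (24.4 to 27.3, mean 25.6, in units of 1e+06). Gene positions and shared exon bases came from GENCODE release 44 (GRCh38), in which 25594 of 25603 identifiers were found. A row with a repeated identifier was dropped. Promoters came from the RefSeq table of GRCh38.p14, with entries for 43 of the 60 members.

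The log2 values of the 20153 genes with a mean of at least 0.1 estimated FPKM were fitted with limma 3.58.1 in R 4.3.3 (trended variance, EZHi minus vehicle, 2-sided), with p-values adjusted by Benjamini and Hochberg across the tested genes and a call at an adjusted p under 0.05. All p-values of the text are from this fit unless another is named. The procedure was tested on simulated data with independent noise, no pairing between libraries and changes larger than most of those called here. It therefore does not bear on calls of small changes, of low values drawn together by the transformation, or within replicate numbers. Replicate numbers paired the libraries: deviations from the group means correlated at 0.216 to 0.634 in the 4 pairs of the same number and at -0.582 to 0.199 in the 12 pairs of different numbers, so a fit with the number as a block is given where it changes the call of a named member or partner gene, and as counts for the marker lists. Alternatives were the block, pseudocounts, filters, scalings and left-out libraries. Some genes are not reported here, and neither their values nor their points in the plots are shown, though they remain in the counts of calls. Values named were those of the called members, in each class the most abundant gene and the called gene nearest the threshold, a set of channels with epithelial, liver or tumour roles, and up to 3 called genes of each partner list. Other values were named after they were seen. The members, classes, partner lists and marker lists were chosen with earlier results of these data known. Figures were drawn with matplotlib 3.10.9 in Python 3.11.15.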

Additional observations from a re-analysis of the deposited data

Results flagged for a closer look

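In 5 of 60 groups of 4 libraries (30 genes in each of 2 groups), 1 library stood apart from the others by more than Dixon's critical share of the range of its group. Chance alone gives about 1 such group in 20, or 3 of 60. In vehicle, KCND1 was 2.60 in replicate 4 against 2.82 to 2.85 in the others and KCNH6 was 1.98 in replicate 3 against 1.40 to 1.49. In EZHi, KCNC4 was 4.06 in replicate 4 against 4.74 to 4.81, KCNG2 was 2.70 in replicate 3 against 3.001 to 3.06, and KCNJ14 was 1.84 in replicate 4 against 1.54 to 1.58 (all length-corrected log2 values). KCND1 was called higher without the library that stood apart, and KCNC4 was called without EZHi replicate 4 (difference 0.66, limma adjusted p = 0.0331).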

How the results depend on the processing

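With 8 members called higher, the count was 13 of 60 with no filter on low values, 1 of 9 with a filter at a mean of 1 estimated FPKM, which removes 23 of the 32 genes by its construction, and 17 of 32 with the replicate block, which lost none of the 8 calls. The block changed no other call of the members. The count was 7 to 9 when 1 library was left out, 11 without replicate 3 of both groups (chosen after seeing the data), 7 after quantile normalisation and 10 after centring the libraries on genes with a mean of at least 10 estimated FPKM. No member was called lower in any of these fits. Pseudocounts of 0.5 and 0.1 estimated FPKM kept the count at 8 and, by their construction, shrank the differences of low genes, as in KCNK6 to 0.88, KCNT1 to 0.22 and KCNK9 to 0.11 at 0.5.

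KCND1 lost its call after quantile normalisation (limma adjusted p = 0.0665). KCNK6, KCNMB4, KCNH3, KCNT1 and KCNK9 kept their call in every fit that tested them. KCNC4, KCNH2, KCNH4, KCNH6, KCNJ4 and KCNAB2 each gained a call when 1 library was left out, for example KCNH2 without vehicle replicate 2 (0.96, limma adjusted p = 0.0251) and KCNAB2 without it (0.49, 0.0383). KCNH4, KCNH6, KCNJ4 and KCNAB2 also gained one without replicate 3 of both groups, and KCNAB2 after quantile normalisation (0.0301) and after centring (0.0298), and KCNJ14 after centring (0.37, 0.0221).

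Members that changed sign were 6 of 32, and none of them was called. Leaving out 1 library gave -0.31 to 0.028 for KCNN4, -0.26 to 0.12 for KCNJ10, -0.25 to 0.18 for KCNK13, -0.11 to 0.094 for KCNAB1, -0.021 to 0.20 for KCNAB3 and -0.0024 to 0.17 for KCNIP2. Centring gave 0.015 for KCNK13 and 0.054 for KCNAB1, and quantile normalisation gave -0.16 for KCNAB3 and -0.099 for KCNIP2. Causes were not tested. The values carry no depth, so counting error at these low levels is not known.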
